A study of Mus musculus with 2 samples.

Results

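Tubulins are the building blocks of microtubules, and 9 of their genes were examined for UPF1 binding in mouse neural progenitor cells: the alpha-tubulin genes Tuba1a, Tuba1b and Tuba1c, the beta-tubulin genes Tubb2a, Tubb2b, Tubb3, Tubb4b and Tubb5, and the gamma-tubulin gene Tubg1. Members were the UPF1 clusters that overlapped the RefSeq locus of one of these genes by at least 1 nt on the strand of the gene. The rule found 11 clusters in 5 of the 9 genes, out of 123349 clusters and 10146 genes with a cluster in the whole data set. UPF1 is the core helicase of nonsense-mediated decay, the pathway that removes mRNAs with premature stop codons. Its binding was mapped by enhanced crosslinking and immunoprecipitation (eCLIP), in which RNA pieces crosslinked to a protein are pulled down with it and sequenced. The 2 libraries were a UPF1 immunoprecipitate and an input made without the pull-down. Both came from cultured neural progenitor cells of cortex with the genotype Upf2fl/fl, a loxP-flanked Upf2 allele that both libraries share, and both carry the label MOCK, which the labels do not explain; no animal age, Cre or treatment is given. There was 1 library a group, so no difference below has a replicate check and no p-value between conditions was computed.

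Alpha- and beta-tubulin form the heterodimer that polymerises into microtubules, and gamma-tubulin sits in the ring complex from which microtubules grow. In neural progenitors microtubules build the mitotic spindle and the primary cilium, and in newborn neurons they fill the growing axon. Cells also adjust tubulin supply at the level of RNA: when unassembled tubulin is in excess, the factor TTC5 recognises the first residues of newly made alpha- and beta-tubulin on the ribosome and, with SCAPER and the CCR4-NOT deadenylase, triggers decay of the tubulin mRNA being translated.

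Each cluster comes with the authors' own log2 fold, immunoprecipitate over input, and their −log10 p for it. A cluster is called enriched here when its log2 fold is at least 3 and its −log10 p at least 3. None of the 11 tubulin clusters was enriched, against 11.6% of all clusters (14330 of 123349). A count of 0 among 11 allows a share of up to 27.3%, for counting error only, a limit that lies above the share over all clusters. This limit is approximate. It divides 3 by the number of clusters and takes them as independent, though 4 of the 11 lay in Tubb5. It also counts clusters too shallow to be called, since a call takes at least 24 immunoprecipitate reads. Of the clusters with reconstructed reads, only that of Tubb2b (59) and those of Tubb5 with 32 and 30 held as many. The limit therefore says little about the others. Past the fold threshold alone, whatever the p, was 1 of the 11, beside 13.7% of all clusters. Of the 11, 9 had a log2 fold above 0 and 2 lay just below it, and 73.2% of all clusters had a fold above 0. The median log2 fold was 0.98 for the tubulin clusters and 0.71 for all clusters. Tubb5 held the clusters with the highest folds, Tubb2b the cluster with the most reconstructed reads, and Tuba1b, Tuba1c, Tubb3 and Tubb4b had no cluster.

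Read counts behind the clusters were reconstructed from the steps in the deposited fold and p, as described under the processing. They give each fold an exact 95% Clopper-Pearson interval, which covers counting error only. Where the input count is 1, the true count may have been 0. The counts show how far each cluster was from a call: with 1 input read the fewest immunoprecipitate reads that give one are 24, with 2 input reads 33, and with 10 input reads 163.

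Tubb5, on chromosome 17 from 35833920 to 35838301 of GRCm38 on the minus strand, encodes a beta-tubulin abundant in proliferating cells. It had 4 clusters, all in the last 1000 nt of its locus. The cluster at 35834632 to 35834707, 749 nt from the 3′ end, held 21 immunoprecipitate reads against 1 input read, a log2 fold of 3.37 (interval 0.73 to 8.74) with a −log10 p of 2.59. It passed the fold threshold and missed that on p. The cluster at 35834340 to 35834469, 484 nt from the end, held 32 reads against 2, a log2 fold of 2.98 (interval 1.01 to 6.08) with a −log10 p of 3.47. Its neighbour at 35834470 to 35834552, with no gap between them, held 30 reads against 2, a log2 fold of 2.88 (interval 0.90 to 5.99) with a −log10 p of 3.27. These adjoining clusters passed on p and missed the fold threshold, the first of them by 1 immunoprecipitate read. The cluster nearest the end, at 35834032 to 35834078, held 12 reads against 1, a log2 fold of 2.56 (interval -0.20 to 7.98). The 4 folds lay within each other's intervals, so their order along the gene is not resolved.

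Taken over its 4 clusters, which span 676 nt, Tubb5 had 95 immunoprecipitate reads against 6 input reads, a log2 fold of 2.96 (interval 1.79 to 4.44). Reads that reach across adjoining clusters may be counted in both. The interval lies above 0 and includes the threshold of 3, so it does not say on which side of the threshold the sum falls. The list holds stretches where immunoprecipitate reads piled up, and the rest of the locus is not counted. A sum above 0 over such stretches is therefore no separate support for binding of Tubb5. Of all clusters, 73.2% had a fold above 0. With a fold threshold of 2 both adjoining clusters were called, the only tubulin clusters that were, where 12.9% of all clusters and 34.9% of all genes with a cluster were called. The highest fold in Tubb5 was above that of 65.9% of the genes with a cluster.

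Tubb2b, on chromosome 13 from 34127008 to 34130354 on the minus strand, encodes a beta-tubulin of the developing brain in which human mutations cause malformed cortex. Its 1 cluster, at 34127380 to 34127537, was the widest of the 11 at 158 nt and lay 450 nt from the 3′ end. It held 59 immunoprecipitate reads against 10 input reads, a log2 fold of 1.54 (interval 0.56 to 2.67) with a −log10 p of 2.77. Of the 9 intervals that could be made, this was the only one that ended below 3. The fold of this cluster was thus under the threshold beyond counting error, in these 2 libraries. That it lies above 0 is no separate support for binding, since clusters were listed where immunoprecipitate reads piled up. With 10 reads the Tubb2b cluster also had the most input reads of the 9 clusters whose reads could be reconstructed. Its interval and that of the summed Tubb5 reads overlap between 1.79 and 2.67.

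Tubb2a, a close paralog of Tubb2b on the same chromosome (34074278 to 34078008, minus strand), had 1 cluster at 34077755 to 34077816. It lay 3507 nt from the 3′ end and 223 nt from the 5′ end, at the opposite side of the gene from the cluster of Tubb2b. It held 4 reads against 1, a log2 fold of 0.98 (interval -2.36 to 6.60), too few reads to place it above or below input. Tubb3, the neuronal beta-tubulin (chromosome 8, 123411553 to 123422015, plus strand), and Tubb4b, a widely expressed beta-tubulin (chromosome 2, 25222158 to 25224702, minus strand), had no cluster on either strand.

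**Figure D1:**
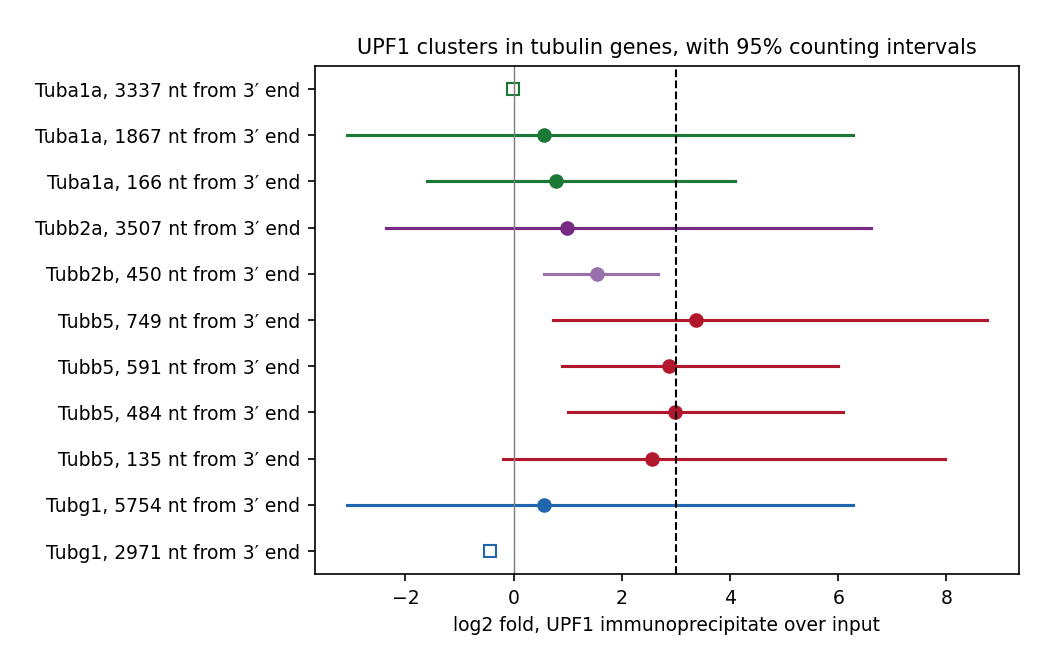
Log2 fold of the UPF1 immunoprecipitate over input for each of the 11 tubulin clusters, named by gene and distance from the 3′ end. Filled points are clusters with reconstructed reads and lines are their 95% counting intervals, open squares are the 2 clusters below 0, for which no interval was made, and the dashed line marks the log2 fold threshold of 3. Of the 9 intervals only that of Tubb2b, 0.56 to 2.67, ends below the dashed line.

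Among the alpha-tubulin genes, only Tuba1a had clusters. Tuba1a, on chromosome 15 from 98949847 to 98953501 on the minus strand, encodes the main alpha-tubulin of newborn neurons, and its mutations cause lissencephaly in humans. Its 3 clusters were spread over the gene. The one at 98949961 to 98950065, 166 nt from the 3′ end, held 7 reads against 2, a log2 fold of 0.78 (interval -1.61 to 4.09). The one at 98951694 to 98951734, 1867 nt from the end, had a log2 fold of 0.56 (interval -3.08 to 6.27), the value of 3 reads against 1, though 6 against 2 would give the same deposited values. The one at 98953141 to 98953227, 317 nt from the 5′ end, had a log2 fold of -0.02, for which the deposited list gives no p above 0 and no counts could be reconstructed; the smallest whole numbers with this fold are 2 reads against 1. All 3 folds lay close to input and none was resolved from it. Tuba1b (98931429 to 98934390, minus strand) and Tuba1c (99029891 to 99038105, plus strand), which lie on the same chromosome and encode nearly the same protein, had no cluster on either strand.

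Tubg1, on chromosome 11 from 101119904 to 101126423 on the plus strand, encodes the gamma-tubulin of the nucleating ring complex. It had 2 clusters, neither near the 3′ end. The one at 101120657 to 101120681, 765 nt from the 5′ end, was the narrowest of the 11 at 25 nt and had a log2 fold of 0.56 (interval -3.08 to 6.27), again the value of 3 reads against 1. The one at 101123427 to 101123477, near the middle of the locus, had the lowest fold of the 11, -0.44. The deposited −log10 p was 0 for both, and neither was resolved from input.

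By highest fold the 5 genes with a cluster ran Tubb5 (3.37), Tubb2b (1.54), Tubb2a (0.98), Tuba1a (0.78) and Tubg1 (0.56). The interval of each gene's highest cluster overlaps that of the next. Neighbours in this order were not tested against each other, and the order is not resolved. None of these 5 genes had an enriched cluster, against 32.8% of all genes with a cluster (3325 of 10146) and 34% of protein-coding ones. Genes with few clusters were rarely called: of the 4329 genes with 1 to 4 clusters, 8.94% had an enriched one, and the 5 tubulin genes had 1 to 4 clusters each. Their median highest log2 fold was 0.98, beside 1.30 for genes with 1 to 4 clusters and 2.44 for all genes with a cluster. Of protein-coding genes whose loci are as long as those of the 9 (2545 to 10463 nt) and that had a cluster, 27% had an enriched one.

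The tubulin folds are set out here by position, which cannot be told apart from gene. Only Tuba1a had clusters both inside and outside the last 1000 nt, and its folds were not resolved from input. Of the 11 tubulin clusters, 6 lay within 1000 nt of the 3′ end of their locus, 4 of them in Tubb5 and 1 each in Tubb2b and Tuba1a. The 14988 clusters in the last 1000 nt of protein-coding loci had a median log2 fold of 2.68. Of the 6 tubulin clusters there, 3 of Tubb5 lay above that median (2.88, 2.98 and 3.37) and the fourth below it (2.56), and those of Tubb2b (1.54) and Tuba1a (0.78) lay farther below. The other 5 tubulin clusters lay 1867 to 5754 nt from the end and had log2 folds of -0.44 to 0.98. Clusters of protein-coding loci had a median of 2.81 at 1000 to 2000 nt, where the middle cluster of Tuba1a had 0.56. At 2000 to 5000 nt the median was 2.02, and the tubulin clusters of Tubb2a, Tuba1a and Tubg1 had 0.98, -0.02 and -0.44. At 5000 to 10000 nt it was 0.78, and the other cluster of Tubg1 had 0.56. All 5 lay below the median of their distance class, with 1 to 3 clusters a class. Enriched were 40% of all clusters at 1000 to 2000 nt, 28% at 2000 to 5000 nt and 8.27% at 5000 to 10000 nt, and none of the 5. At their depth none of the 5 could have been called. Those with reconstructed counts held 3 or 4 immunoprecipitate reads, where a call takes at least 24, and the others had folds below 0. The intervals that could be made include the class medians, so these clusters are not resolved from them. None of the 6 near the end was enriched, where 35.8% of such clusters were. By the same approximate limit a count of 0 among 6 allows a share of up to 50.0%. It again takes the clusters as independent, though 4 of the 6 lay in Tubb5. It also counts the Tuba1a cluster with 7 reads and the Tubb5 clusters with 12 and 21, which were too shallow to be called. Of clusters in the last 1000 nt with 12 to 59 reconstructed immunoprecipitate reads, the range of the Tubb5 and Tubb2b clusters, 40.7% were enriched. Reads were reconstructed only for folds above 0, so the share over all clusters of that depth may be lower. Distances are genomic, introns included, and exons were not told apart from introns.

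**Figure D2:**
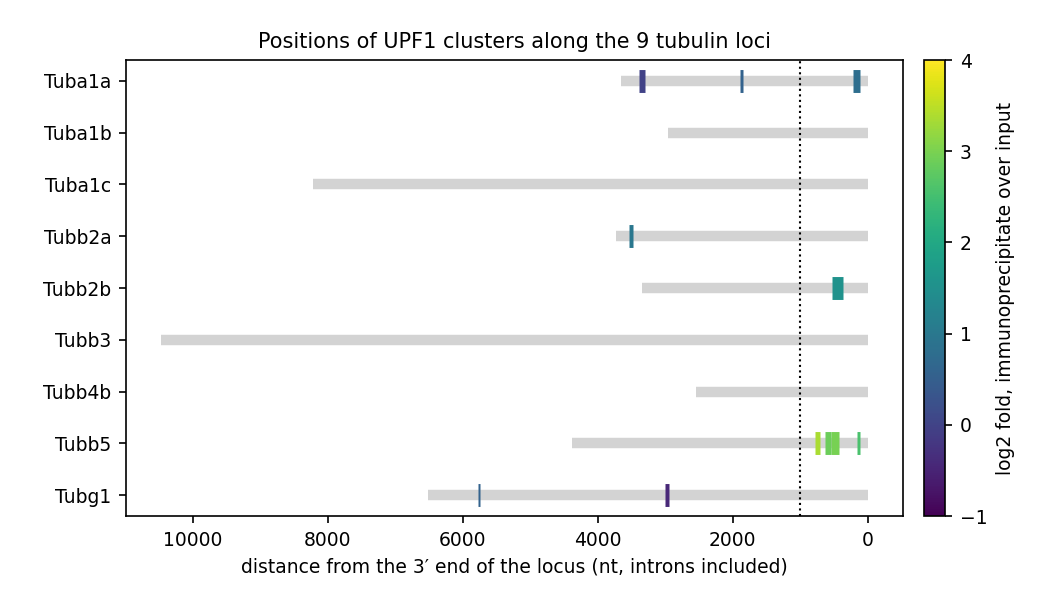
Positions of the UPF1 clusters along the 9 tubulin loci, drawn as distance from the 3′ end in nt with introns included. Grey bars are the loci, coloured blocks the clusters, with the colour giving the log2 fold over input, and the dotted line marks 1000 nt from the 3′ end. The 4 Tubb5 clusters, that of Tubb2b and 1 of Tuba1a lie right of the dotted line, and Tuba1b, Tuba1c, Tubb3 and Tubb4b are empty.

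The clusters covered little of each gene: 336 nt of Tubb5 (7.67% of the locus), 233 nt of Tuba1a (6.37%), 158 nt of Tubb2b (4.72%), 76 nt of Tubg1 (1.17%) and 62 nt of Tubb2a (1.66%). Their median width was 76 nt, beside 67 nt for all clusters. None of the 11 lay in a second annotated locus, and no cluster lay on the opposite strand of the 7 loci whose strand came from the annotation. For Tubb2b and Tubg1 the strand was itself taken from their clusters. Within 5000 nt on either side of the 9 loci no further cluster lay on the strand of the gene. The 3 clusters found there, beside Tubb2a and Tubb5, were on the other strand. A missing cluster is a statement about the list, not about the RNA: the list holds only stretches where immunoprecipitate reads piled up, and it gives no expression level. Of 21887 protein-coding loci, 44.5% had a cluster, and of the 5148 with lengths in the range of the 9 loci, 33.9% did, beside 5 of 9 for the tubulins.

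Near-identical paralogs share reads. How reads that map equally well to several places were treated is not given in the sources used here, and its part in the missing and shallow clusters of the tubulins was not tested. The 7 tubulin pseudogene loci of the annotation, among them copies of Tubb4b, Tubb3 and Tubb2a, held no cluster.

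**Figure D3:**
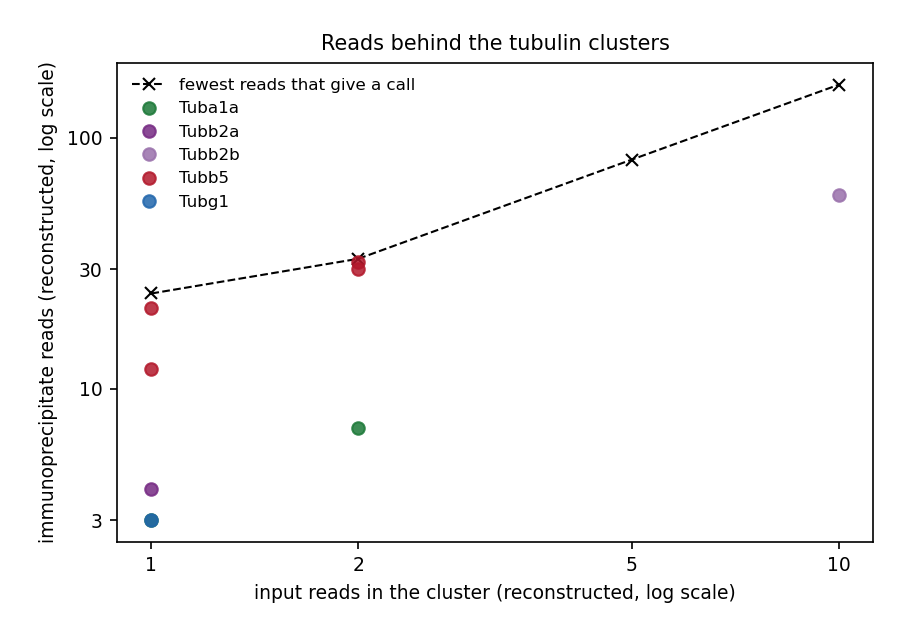
Reconstructed immunoprecipitate reads against input reads for the 9 tubulin clusters with a fold above 0, both on log scales, coloured by gene. Crosses joined by a dashed line give the fewest immunoprecipitate reads that yield a call at 1, 2, 5 and 10 input reads (24, 33, 82 and 163). All 9 clusters lie below the line, the Tubb5 clusters with 32 and 30 reads against 2 closest to it; a Tuba1a cluster with 3 reads against 1 is hidden under that of Tubg1.

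Of 11 other tubulin genes, 3 had a cluster, and none of these was enriched. The share was 32.8% over all genes with a cluster and 8.94% over those with 1 to 4 clusters. Tubb4a, the beta-tubulin of oligodendrocytes and neurons, had 1 with a log2 fold of 1.78 (interval -1.18 to 7.28), Tubd1, the delta-tubulin of centrioles, had 1 with 1.30, and Tubb6 had 2, both with 0.98. Tuba3a, Tuba3b, Tuba4a, Tuba8, Tubal3, Tubb1, Tube1 and Tubg2 had none.

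None of the 3 factors of tubulin mRNA autoregulation had an enriched cluster, beside 32.8% of all genes with a cluster. Their median highest log2 fold was 2.56, beside 2.44 for all genes with a cluster. Ttc5, which reads the nascent tubulin chain, had 7 clusters, the highest at 17 reads against 1 with a log2 fold of 3.06 (interval 0.39 to 8.45), past the fold threshold and short of that on p. Cnot11, the CCR4-NOT subunit that docks on this pathway, had 5 clusters and reached 2.56 (interval -0.20 to 7.98). Scaper had 10 clusters and reached 2.15 (interval -0.71 to 7.60).

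Few genes for folding of tubulin were enriched. Clusters lay in 16 of the 21 genes listed for the chaperonin CCT, prefoldin and the tubulin cofactors. Of the 16, 1 had an enriched cluster (6.25%, beside 32.8% of all genes with a cluster). Several of the 16 had only 1 to 4 clusters, and of all genes with 1 to 4 clusters 8.94% had an enriched one. Others had more, such as Tbce with 11 and Cct2 with 7, and that share does not apply to them. The median highest log2 fold of the 16 was 0.98. The exception was Tbcel, a protein related to the tubulin cofactor TBCE, with 1 of 16 clusters enriched at a log2 fold of 4.26 (interval 2.36 to 7.33). Next were the prefoldin subunits Pfdn1 and Vbp1, both at 2.78 (interval 0.07 to 8.19) from 14 reads against 1 and not enriched.

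In the lists of microtubule nucleation, tubulin modification and severing, 22.2% to 37.5% of genes with a cluster had an enriched one. Of the 16 genes of the gamma-tubulin complex and augmin, 9 had a cluster and 3 an enriched one (33.3%, beside 32.8% of all genes), with a median highest log2 fold of 3.22, beside 2.44 for all genes. Mzt1, a small subunit of the gamma-tubulin ring complex, was enriched in 5 of its 8 clusters, up to a log2 fold of 5.74 (interval 3.24 to 11.06). Tubgcp3, a core subunit of that ring, reached 4.78 (interval 2.25 to 10.11), and Haus2, a subunit of the augmin complex that branches spindle microtubules, reached 4.73 (interval 2.84 to 7.79) with 7 of 11 enriched. The highest clusters of these 3 genes lay in the last 1000 nt, where 35.8% of clusters of protein-coding loci were enriched. Over all clusters the share was 11.6%. The lower bound for Mzt1 lies above the threshold of 3, which no tubulin gene's lower bound did.

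Of the 19 genes that modify tubulin, 18 had a cluster and 4 an enriched one (22.2%), a count that includes Ttll3. Their median highest log2 fold was 2.21. The highest fold, 6.49 (interval 4.0 to 11.80), stood under Ttll3, a tubulin glycylase, but all 4 enriched clusters there also lay in Arpc4 on the same strand, so they cannot be given to Ttll3. Vash1, a carboxypeptidase that removes the last tyrosine of alpha-tubulin, was enriched in 4 of 13, up to 4.62 (interval 2.08 to 9.95). Ttll12, a member of the tubulin tyrosine ligase-like family, had 3 of 12 and reached 4.37 (interval 1.81 to 9.71). Of the 10 stathmin and severing genes, 8 had a cluster and 3 an enriched one (37.5%), with a median of 2.15. Spast, the severing enzyme spastin, had 4 of 12 and reached 4.53 (interval 1.98 to 9.86), Katnal1, a katanin-like severing subunit, had 3 of 15 and reached 4.47 (interval 2.57 to 7.54), and Stmn4, a neural stathmin, had 1 of 2 enriched and 3.22 (interval 0.57 to 8.60) in its other cluster. Over all the related lists, 11 of 57 genes with a cluster had an enriched one (19.3%, beside 32.8% of all genes). Of their 310 clusters, 35 were enriched (11.3%, beside 11.6% of all clusters). Both counts include Ttll3. With only clusters in no other locus, 10 genes had an enriched one. These lists were not tested against the tubulins or against each other.

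**Figure D4:**
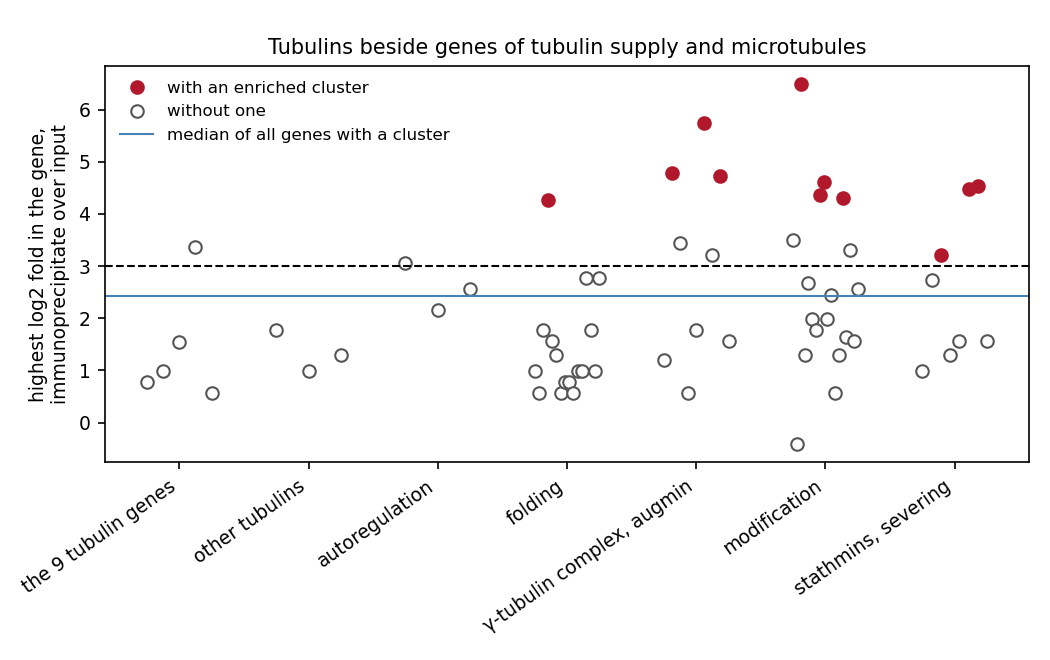
Highest log2 fold (immunoprecipitate over input) of each gene with a cluster, for the 9 tubulin genes and the related lists. Red points are genes with an enriched cluster, open points genes without one, the dashed line marks the log2 fold threshold of 3, and the blue line is the median of all genes with a cluster, 2.44. In the tubulin list Tubb5 alone lies above the dashed line and no point is red; the highest red point, 6.49 under modification, is Ttll3, whose enriched clusters also lie in Arpc4.

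The labelled cell type could be checked only by which marker genes had a cluster. All 8 neural progenitor markers listed had one, among them Nes, Sox2 and Vim, as did 6 of 7 neuronal markers and 4 of 5 oligodendrocyte lineage markers, while none of 7 markers of microglia, vessels and blood did. Of all protein-coding loci, 44.5% had a cluster. An enriched cluster lay in 5 of the 8 progenitor genes, in 3 of the 6 neuronal genes with a cluster and in all 4 oligodendrocyte lineage genes with one. The share over all genes with a cluster was 32.8%. Sox2 is counted among the 5, but all 11 of its clusters also lay in another annotated locus. The progenitor genes without one were Vim, Pax6 and Hes1, and the neuronal ones were Rbfox3, Syn1 and Elavl4.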

How the data were processed

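Per the submitters' processing notes, UMI-tools, cutadapt and STAR were used with mm10. Which program called the clusters, how the fold was computed, what was filtered and the library totals are not stated in these sources. The authors deposited 1 list of stranded clusters with a log2 fold of the UPF1 immunoprecipitate over input and a −log10 p per cluster; it has no header, so both units come from the values and the customary layout. Values of −log10 p are capped at 400 and are 0 for folds at or below 0. The input enters only through these values.

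Clusters were assigned to RefSeq loci of GRCm38.p6 by an overlap of at least 1 nt on the strand of the gene. Strands came from the RefSeq promoter table, for 7 of the 9 tubulin genes, and otherwise from at least 80% of the clusters in no other locus (Tubb2b, Tubg1). Reads were reconstructed by taking the commonest fold as 3 reads against 1, a log2 scale of -1.02, and searching for the lowest whole counts that match the deposited fold (within 0.0005) and p (within 0.02 or 0.5%) from a binomial test (either count under 5) or a continuity-corrected chi-square test. Counts were found for 90005 of 90107 clusters with a fold above 0 and a p under the cap. On simulated counts 99.6% of 1983 clusters were recovered exactly. Python 3.11.15, pandas 2.3.3 and scipy 1.17.1 were used.

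With 1 library a group, lists are described by counts and medians beside those of all features. The tubulin genes, the related lists and the thresholds were chosen with earlier results of these data known. All 9 tubulin genes are named, and of each related list the 3 genes with the highest fold, plus all genes of tubulin autoregulation. Alternatives were other thresholds, assignment rules, merged paralogs and distances.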

Additional observations from a re-analysis of the deposited data

How the results depend on the processing

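Of 40 alternative values for 6 results, 37 kept the main value or stayed within 1.5 times of a count or within the counting interval of a median, and 3 moved, all with the log2 fold threshold at 2. There 2 tubulin clusters were enriched instead of 0, in 1 gene, Tubb5, instead of 0, and the same 2 among the clusters in the last 1000 nt instead of 0. A fold threshold of 4, a −log10 p of at least 5 and an input count of 1 left uncalled can only remove calls. Other overlap rules, either strand, merged paralogs and distances of 500 and 2000 nt added no cluster to the 11. All these alternatives had to leave the counts at 0 and say nothing about how stable they are, though they are among the 37. Summing the reads of each gene, an alternative chosen after seeing the data, could have raised the counts and left them at 0. The related lists had 9 to 11 enriched genes. The median highest log2 fold was 0.98 to 1.16, and the median over tubulin clusters 0.98 to 1.54. Depth limits single values: 5 of the 9 clusters with reconstructed reads rest on 1 input read, and 5 of these 9 intervals include 0. No paired analysis was possible because there was 1 library a group and no result comes from a test.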
